A study of Rattus norvegicus with 4 samples.

Results

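The genes described here build cholesterol and fatty acids or control that process. They comprise the mevalonate and sterol pathway, the Insig, Scap and Srebf genes that regulate it, sterol transport and esterification, and fatty acid synthesis, elongation and desaturation. Of 42 genes named, 38 had at least 1 probe set annotated to that gene symbol alone, out of 10411 genes so represented on the array. Hmgcs1, Stard4, Abca1 and Npc1 were not analysed here. A probe set is the group of short oligonucleotides on an Affymetrix array that reads 1 transcript, and the 38 genes had 57 of them. Total RNA came from RTEC11, an epithelial cell line from the trachea of transgenic rats that carry a temperature-sensitive large T antigen of simian virus 40. Cells of both groups carried the transgene and were cultured for 3 days, at the permissive 33 °C or at the nonpermissive 39 °C, with 2 arrays per temperature. The antigen is inactivated at 39 °C, and the series concerns how the cells then stop growing and differentiate. Temperature and antigen activity changed together and cannot be told apart.

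Cells make cholesterol from acetyl-CoA by way of mevalonate, isoprenoid diphosphates, squalene and lanosterol. Srebp transcription factors switch these genes and those of fatty acid synthesis on together. Srebp is held in the endoplasmic reticulum by Scap and Insig proteins while sterols are plentiful, and is cut free in the Golgi when they run low. Dividing cells need both products for new membrane, and airway epithelium also uses them for secreted lipid and for its surface barrier.

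The arrays had been scaled alike before deposit, and the correlation over probe sets was 0.979 between the 33 °C arrays, 0.980 between the 39 °C arrays and 0.950 to 0.953 across temperatures. The ratio of the 3′ to the 5′ control probe set, a sign of RNA integrity, was 1.01 to 1.17 for Gapdh and 1.18 to 1.38 for beta-actin. Of 8 epithelial markers with a probe set, 7 lay above the dimness threshold (a mean normalized level over the 4 arrays that equals an intensity of 81.1), among them Krt8, Krt14, Krt18, Krt19, Cdh1 and Epcam, while Krt5 did not. Of other cell types, 1 of 7 fibroblast markers (Col3a1), 1 of 4 adipocyte markers (Pparg) and 1 of 5 leukocyte markers (Cd14) lay above it. Summed intensities of the fibroblast list were 216 and 238.2 at 33 °C and 334.1 to 409.9 at 39 °C, those of the adipocyte list 120.8 and 153.9 against 307.1 and 348.6. Within these sums, Col3a1 alone read 59.1 and 47.9 against 263.5 and 172.8, and Pparg alone 78.7 and 94.4 against 320.7 and 276.9. The other fibroblast and adipocyte markers with a probe set stayed under the threshold, so neither rise was shared by its list. The leukocyte list summed to 912 and 961.9 against 792.8 and 869.3. The part of such cells in the results was not tested. The labels do not say whether replicates were separate cultures, so p-values measure the spread between these arrays only, which may be technical, and the number of arrays limits the precision.

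Most genes of the set were lower at 39 °C, and sterol synthesis was lower along nearly its whole length. Of 36 genes tested, 26 were called lower and 4 higher, where a call is an adjusted p under 0.05 in limma. That method fits a linear model to each gene and draws on all genes tested to estimate each gene's spread. Over all 7016 genes tested, 26.1% were called lower and 23.1% higher by the same rule. The members were chosen with earlier results of these data known, and how far that choice shaped their counts was not tested. The median log2 change, 39 °C minus 33 °C, was -0.71 over the 36 genes and -0.04 over all genes tested. Both 39 °C arrays lay below both 33 °C arrays in 27 of the 36, as they did in 40.0% of all genes tested. A fall of at least 2-fold was called for 7 of the 36, Acat2, Mvd, Tm7sf2, Msmo1, Hsd17b7, Aacs and Elovl6, against 4.73% of all genes. All changes are on the scale of log2(intensity + 16) after quantile normalization, which gives the arrays 1 common distribution. The scaling of the arrays moved all genes together: of all calls, 47.0% were higher after quantile normalization, 52.3% on the scale as deposited, 36.7% when each array was centred on its median (median-centring) and 19.2% when arrays were scaled to 24 probe sets meant for added control RNAs (spike-in scaling). Before normalization those probe sets averaged 6.63 and 6.69 at 33 °C and 6.99 and 7.09 at 39 °C on the log2 scale. These means lie close to the dimness threshold of 6.60. Whether the control RNAs were added, in what amounts, and whether they read above background was not checked. The median change of the 36 genes lay 0.67 below that of all genes after quantile normalization and 0.69 below it on the scale as deposited. Median-centring and spike-in scaling shift each deposited array by 1 constant, so the distance of 0.69 is the same there by construction. Under spike-in scaling 31 members were called lower and 1 higher, where 47.9% of all genes were called lower and 11.4% higher. Without permissive replicate 2, or with no filter on dim genes, 2 members were called higher. In RNA from whole cultures, fewer cells expressing a gene and less RNA per cell cannot be told apart.

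**Figure D1:**
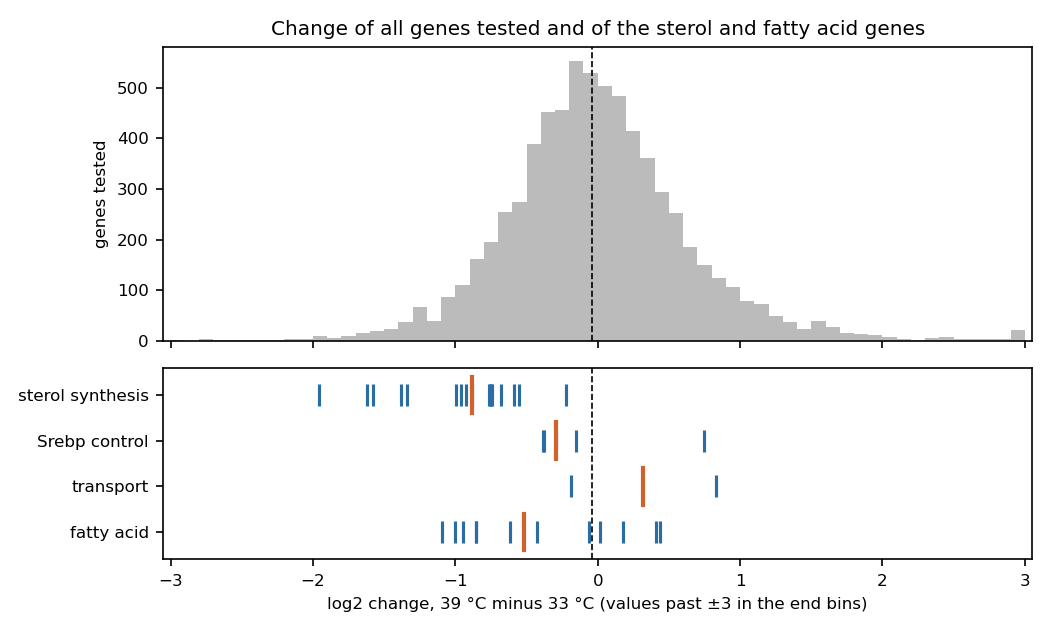
The upper panel counts all 7016 genes tested by log2 change, 39 °C minus 33 °C, and the lower panel marks each tested gene of the 4 groups with a thin line and the group's median with a thick line; the dashed line is the median of all genes, -0.04. The 17 sterol synthesis genes all lie to the left of it, with a median of -0.88, while the fatty acid group reaches from -1.10 to 0.43.

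The first steps join acetyl-CoA units and carry them through mevalonate to squalene, and all 7 genes tested here were called lower, with a median change of -0.76. Acat2, the cytosolic thiolase that joins the first acetyl-CoA units, had deposited intensities of 2389.3 and 1918.4 at 33 °C and 679.9 and 740.4 at 39 °C. Its lowest 33 °C array thus stood well above both 39 °C arrays, and the change was -1.58 ± 0.12 on the log2 scale (SE), 2.98-fold lower with an adjusted p of 1.65e-06 in limma. Mvd, the decarboxylase that yields isopentenyl diphosphate, read 840 and 735.1 at 33 °C and 200.4 and 207.5 at 39 °C. It fell furthest of the 36 genes tested, by 1.96 on the log2 scale with an SE of 0.14, 3.88-fold, with an adjusted p of 1.12e-06 in limma. The kinases that act before it, Mvk and Pmvk, fell less, with changes of -0.76 ± 0.14 and -0.74 ± 0.12 (SE). Fdps, which makes farnesyl diphosphate for sterols and for protein prenylation, read 7220.2 and 7735.6 against 3485.2 and 3568.1, a change of -0.96 ± 0.09 (SE). Its 39 °C arrays differed from each other far less than they did from the 33 °C arrays. Idi1, the isomerase, read 3100.4 and 3907.4 against 2356 and 1803.2, a change of -0.68 ± 0.14 (SE) that ran from -0.90 to -0.47 as each array was left out and stayed called. Fdft1, the squalene synthase, changed by -0.59 ± 0.11 (SE), the smallest fall of the 7.

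From squalene to cholesterol, 9 of 10 genes were called lower and 0 higher, with a median change of -0.90 (limma). All 10 changes were negative, so 0 were higher at an unadjusted p under 0.05 too. Sqle, the epoxidase that commits squalene to sterols, read 2156.5 and 2024.3 at 33 °C and 1131.3 and 1059.4 at 39 °C, a change of -0.92 ± 0.10 (SE). Lanosterol synthase, Lss, changed by -0.75 ± 0.16 (SE), and the lanosterol demethylase Cyp51 by -0.88 ± 0.09 (SE). Between squalene and cholesterol, the 3 largest falls were those of Tm7sf2, Hsd17b7 and Msmo1. Tm7sf2, a sterol reductase that is also a protein of the nuclear envelope, read 1369.9 and 1230.4 against 418 and 439, 3.08-fold lower with an adjusted p of 1.15e-06 in limma. Msmo1, the methylsterol monooxygenase, had the most even arrays, at 4884.5 and 4949.7 against 1860.8 and 1851.2. Its change was -1.34 ± 0.09 (SE), 2.54-fold lower, with an adjusted p of 5.71e-07 in limma. Nsdhl and Hsd17b7 complete the demethylation that Msmo1 starts, and their changes were -0.99 ± 0.13 and -1.38 ± 0.21 (SE). Hsd17b7 read 212.2 and 217.7 against 87.1 and 76.3. Its mean over the 4 arrays passed the dimness threshold, but its normalized log2 mean at 39 °C, 6.54, lay just under that threshold of 6.60. Its change was -1.54 with 1 added to each intensity and -1.04 with 64 added.

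Among the last steps, Ebp and Dhcr7 had the smallest falls of the sterol synthesis genes tested, while Sc5d fell about as much as Mvk. Ebp, the sterol isomerase, changed by -0.55 ± 0.11 and Sc5d, the sterol desaturase, by -0.77 ± 0.11 (SE). The final reductase, Dhcr7, read 862.8 and 908.7 against 728.4 and 835.4. Both 39 °C arrays were below both 33 °C arrays, yet the change of -0.22 did not pass (adjusted p 0.138 in limma), with a 95% confidence interval from -0.47 to 0.03. It was called with median-centring (-0.33) and with spike-in scaling (-0.56).

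**Figure D2:**
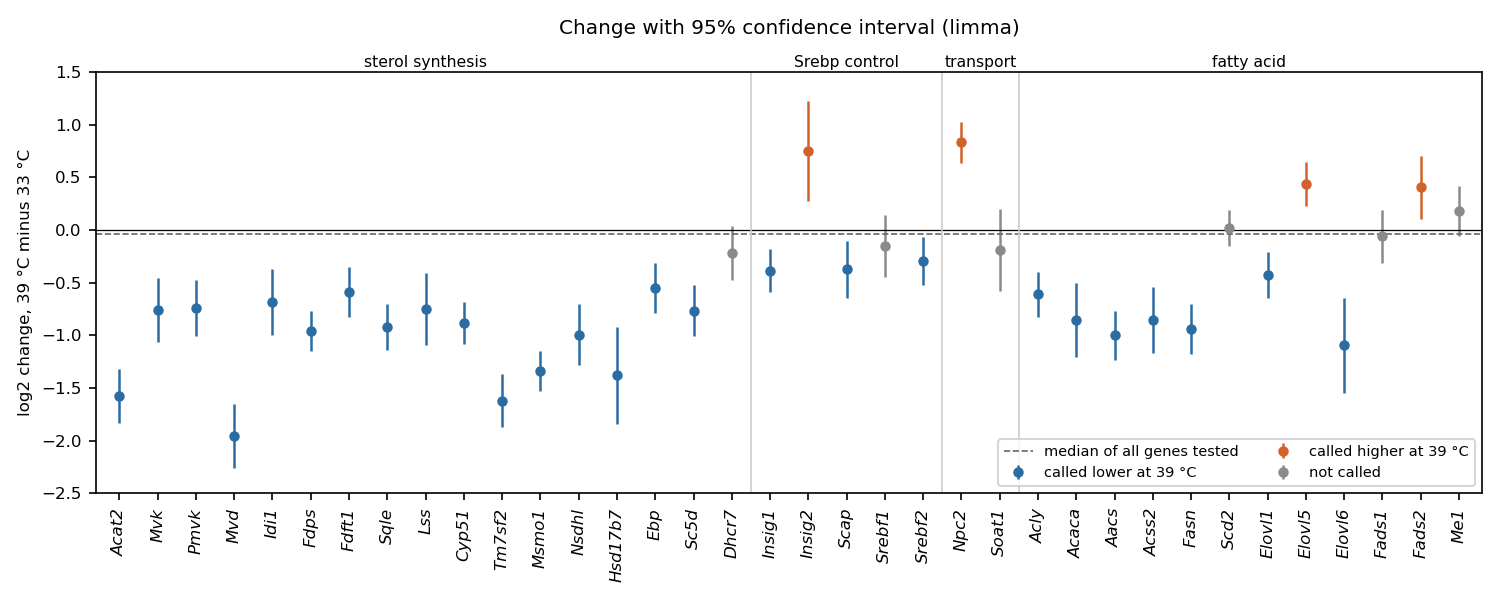
Log2 change, 39 °C minus 33 °C, of the 36 genes tested in pathway order, with 95% confidence intervals from limma; colours give the call and the dashed line the median of all genes, -0.04. Every interval of the sterol synthesis genes lies below 0 except that of Dhcr7, which ends at 0.03, and Npc2 is the highest point at 0.83.

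Several sterol genes were read by more than 1 probe set, and most of these fell alike. On the log2 scale, further probe sets that passed the dimness threshold changed by -1.23 for Mvk, -0.85 for Idi1, -0.67 for Fdft1, -1.11 for Cyp51 and -1.75 for Hsd17b7, each a larger fall than that of the brighter probe set used. Lss differed most in size. Its second probe set read 232.1 and 274.2 at 33 °C and 64.8 and 28.9 at 39 °C, a change of -2.27 against -0.75. Its normalized log2 values at 39 °C, 6.19 and 5.52, lay under the dimness threshold of 6.60. So did those of the further Hsd17b7 probe set, 5.96 and 6.29, and the size of both falls is thus uncertain. Sc5d was the sterol gene whose probe sets differed in sign: the brighter read 1283.2 and 1144.4 against 726.6 and 720.8, the dimmer 225.9 and 317.6 against 321.9 and 390.9. The dimmer one changed by 0.27, and with the mean of both probe sets the Sc5d change was -0.25 and no longer called. Over all groups, 12 of 15 further probe sets past the threshold had the sign of the one used, and Sc5d, Elovl5 and Me1 account for the others.

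**Figure D3:**
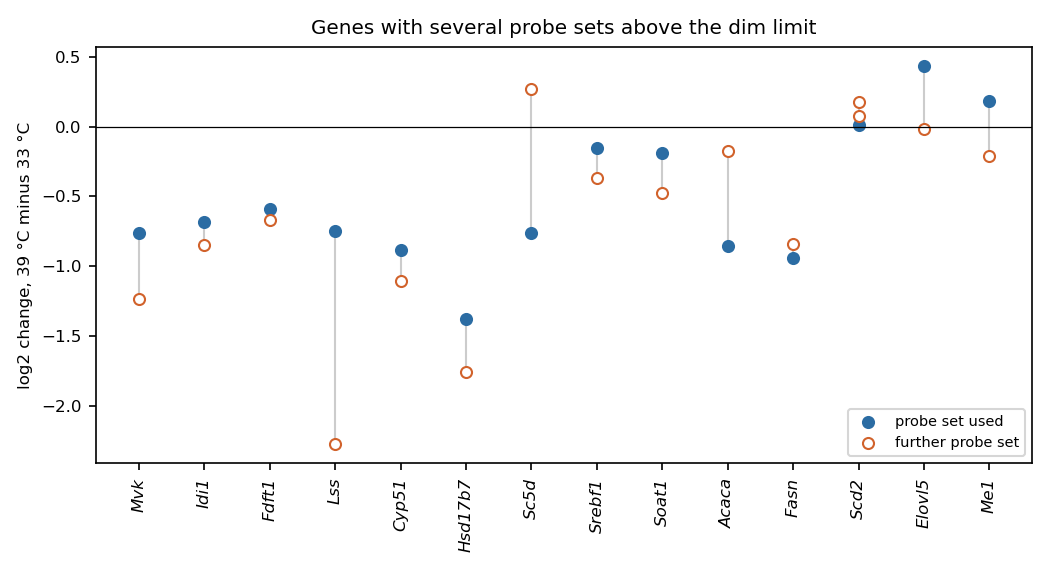
Log2 change, 39 °C minus 33 °C, of each probe set past the dimness threshold, for the 14 genes with over 1 such probe set; filled points are the probe sets used, open points the further ones, and grey lines join those of 1 gene. Lss spans -2.27 to -0.75 and Sc5d -0.77 to 0.27, while the points of Idi1, Fdft1 and Fasn lie close together.

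Windows at annotated gene starts are shown for 3 enzyme genes with steep falls and for Insig1 and Insig2. Srebp is known to act on sterol gene promoters together with NF-Y and Sp1. The windows run from 250 bases before to 50 bases after the start, in RefSeq's GRCr8 assembly of the rat genome. Of the 42 genes, 35 had 1 or more, 36 windows in all, while Pmvk, Fdft1, Sqle, Stard4, Acaca, Fasn and Elovl6 had none. Whether transcription begins at these starts in RTEC11 cells was not tested, so a window, that of Insig2 included, may not be the promoter used. Mvd lies at chr19:67414925-67415224, minus strand. Tm7sf2 lies at chr1:212789492-212789791, minus strand. Msmo1 lies at chr16:29746863-29747162, plus strand. Insig1 and Insig2, of which the first fell and the second rose, lie at chr4:8057720-8058019 and chr13:35040049-35040348, both minus strand. Each is written 5′ to 3′ along its gene, with capitals for the NF-Y letters CCAAT or their reverse complement, ATTGG, and for the E-box letters CACGTG.
Mvd: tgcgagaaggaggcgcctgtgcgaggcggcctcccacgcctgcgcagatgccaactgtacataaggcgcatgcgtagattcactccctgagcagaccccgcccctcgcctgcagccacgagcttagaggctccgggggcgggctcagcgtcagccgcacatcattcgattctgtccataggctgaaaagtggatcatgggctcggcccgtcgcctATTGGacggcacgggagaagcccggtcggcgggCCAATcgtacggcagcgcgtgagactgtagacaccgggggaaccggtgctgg
Tm7sf2: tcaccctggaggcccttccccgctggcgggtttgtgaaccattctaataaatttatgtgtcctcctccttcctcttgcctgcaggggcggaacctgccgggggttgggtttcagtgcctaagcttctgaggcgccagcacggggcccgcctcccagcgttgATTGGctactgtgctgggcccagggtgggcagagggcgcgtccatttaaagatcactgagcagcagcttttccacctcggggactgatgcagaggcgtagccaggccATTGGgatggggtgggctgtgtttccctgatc
Msmo1: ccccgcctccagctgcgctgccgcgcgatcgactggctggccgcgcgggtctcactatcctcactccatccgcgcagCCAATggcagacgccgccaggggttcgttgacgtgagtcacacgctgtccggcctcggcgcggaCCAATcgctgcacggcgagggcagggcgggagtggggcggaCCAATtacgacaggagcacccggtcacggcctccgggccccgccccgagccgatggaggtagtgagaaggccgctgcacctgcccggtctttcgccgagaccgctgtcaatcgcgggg
Insig1: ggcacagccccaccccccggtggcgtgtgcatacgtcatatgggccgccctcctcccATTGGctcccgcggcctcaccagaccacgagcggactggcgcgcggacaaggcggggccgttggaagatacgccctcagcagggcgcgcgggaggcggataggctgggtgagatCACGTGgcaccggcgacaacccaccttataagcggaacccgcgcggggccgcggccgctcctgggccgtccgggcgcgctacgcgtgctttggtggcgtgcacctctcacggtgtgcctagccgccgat
Insig2: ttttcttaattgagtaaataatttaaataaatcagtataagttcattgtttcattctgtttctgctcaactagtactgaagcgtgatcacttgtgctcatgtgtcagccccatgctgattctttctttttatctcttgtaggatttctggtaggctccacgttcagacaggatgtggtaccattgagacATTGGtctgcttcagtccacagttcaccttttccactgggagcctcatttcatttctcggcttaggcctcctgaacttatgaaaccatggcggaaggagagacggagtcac
The Mvd and Tm7sf2 windows hold 2 CCAAT matches each, that of Msmo1 holds 3, and those of Insig1 and Insig2 hold 1 each. CACGTG occurs here in the Insig1 window only. The 3 enzyme genes shown are not the 3 steepest falls. Acat2 and Hsd17b7 fell more than Msmo1, and their windows, not shown, hold 0 and 3 CCAAT matches.

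Over the sterol synthesis genes, 12 of 15 windows held CCAAT on either strand, over all member windows 25 of 36, or 69.4%, against 38.2% of the 6558 windows of genes tested and 37.5% of all 33469 windows in the table. GGGCGG, the Sp1 letters, was found in 28 of 36 member windows on either strand, 77.8%, against 66.0% of the windows of genes tested and 33.1% of all. CACGTG was found in 5 of 36, 13.9%, against 9.68% and 6.42%. TCACNCCAC, a strict form of the sterol regulatory element, was in 0 of 36 member windows on either strand, against 1.10% of the windows of genes tested and 1.12% of all. With shares this low, 0 of 36 does not set the members apart from other genes. None of these motifs contains another, and matches are counts of letters and not binding sites. The windows of Acat2 and Aacs, which fell 2.98-fold and 2.0-fold, held 0 CCAAT matches.

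The regulators of the pathway did not all change in the same direction. Of 5 tested, 3 were called lower and 1 higher, against 26.1% and 23.1% of all genes, with a median change of -0.30. Insig1, which holds Scap and Srebp in the endoplasmic reticulum and is itself a classic Srebp target, read 2731.7 and 2679.5 at 33 °C and 1922.7 and 2071.8 at 39 °C. The groups were well apart, and the change was -0.39 ± 0.09 (SE), with an adjusted p of 0.00474 in limma. Insig2, the related anchor protein, went the other way, at 149.3 and 105.5 against 223.8 and 271.2. Its change of 0.75 ± 0.22 (SE) was called with an adjusted p of 0.0138 in limma. That call was lost without permissive replicate 2 (0.51), without nonpermissive replicate 2 (0.62), with no filter on dim genes (0.75, adjusted p 0.0533 in limma) and with spike-in scaling (0.51). Scap, the escort that senses sterols, changed by -0.38 ± 0.12 (SE, adjusted p 0.0239 in limma), without a call when permissive replicate 2 (-0.30) or nonpermissive replicate 1 (-0.29) was left out or with no intensity trend in the model (adjusted p 0.0535 in limma). Srebf2, which encodes the Srebp form that chiefly drives sterol genes, read 1249.9 and 1371.9 against 1075.3 and 1073.3. Its change was -0.30 ± 0.10 (SE, adjusted p 0.0355 in limma). This call was lost with no intensity trend in the model (adjusted p 0.0807 in limma), with the mean of its probe sets (-0.12), without permissive replicate 2 (-0.22), without nonpermissive replicate 1 (-0.30) and without nonpermissive replicate 2 (-0.29). Srebf1, whose products chiefly drive fatty acid genes, read 824 and 832.4 against 870.7 and 677.5. Its groups overlapped, and the change of -0.15 was not called, with a 95% confidence interval from -0.44 to 0.14, but it was called lower with spike-in scaling (-0.49). A second Srebf1 probe set, at 351.1 and 390.3 against 321.1 and 291.5, changed by -0.37. The arrays measure messenger RNA, and cutting of Srebp was not measured.

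Of the genes of sterol transport and storage, 2 were tested. Npc2, the lysosomal protein that hands cholesterol from degraded lipoproteins to the membrane, read 2286.8 and 2348 at 33 °C and 3980 and 3806.6 at 39 °C. Both 39 °C arrays were far above, and the rise was 0.83 ± 0.09 on the log2 scale (SE), 1.78-fold with an adjusted p of 1.82e-05 in limma. It was the member that remained called higher with spike-in scaling, where 1 was called. Soat1, which esterifies cholesterol for storage, read 365.6 and 490.7 against 342.6 and 456.8. These arrays overlapped and the change of -0.19 was not called, with a 95% confidence interval from -0.58 to 0.19. With spike-in scaling Soat1 was called lower (-0.48). A second Soat1 probe set read 381.2 and 331.2 against 316.1 and 238.1, a change of -0.48. With every probe set on its own it was called lower (adjusted p 0.0392 in limma), as were 25.5% of all probe sets tested.

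**Figure D4:**
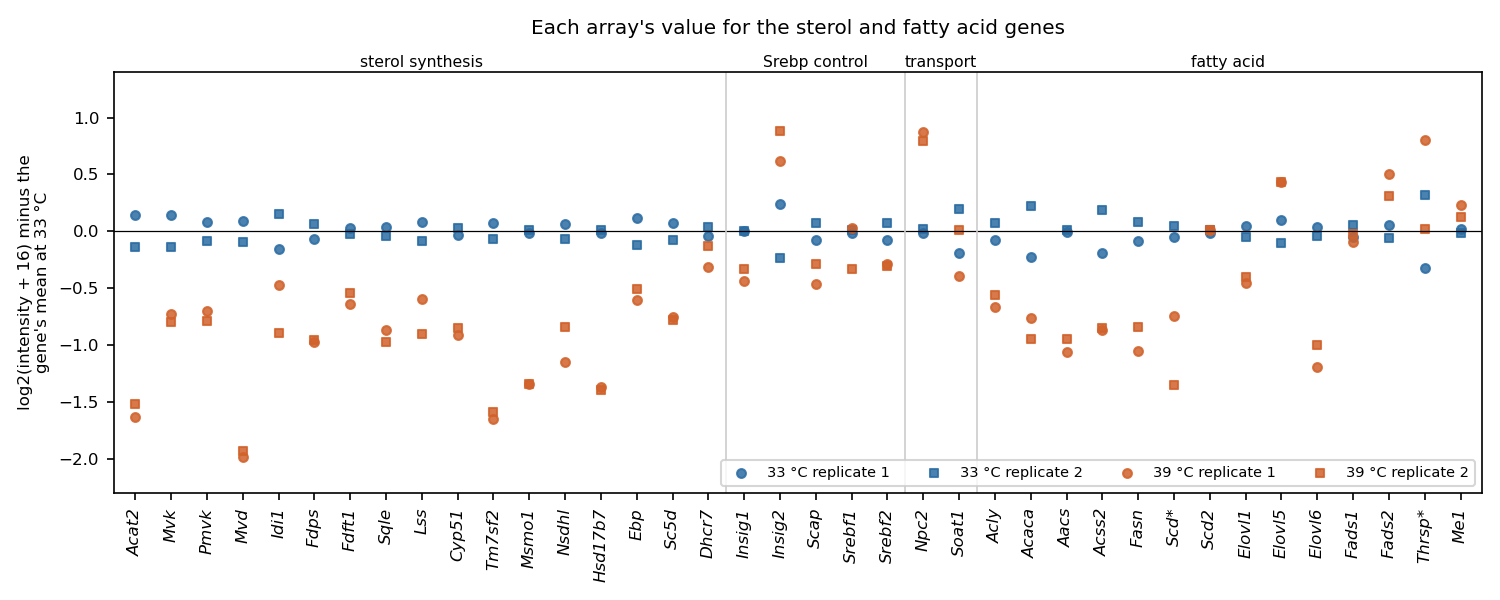
Log2(intensity + 16) of each of the 4 arrays after quantile normalization, less the gene's mean at 33 °C, for the 38 genes with a probe set; blue marks 33 °C, orange 39 °C, circles replicate 1 and squares replicate 2, and an asterisk marks the dim genes Scd and Thrsp. Orange points lie below the blue ones in all 17 sterol synthesis genes, above them in Insig2, Npc2, Elovl5, Fads2 and Me1, and mixed with them in Srebf1, Soat1, Scd2, Fads1 and Thrsp.

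In fatty acid metabolism, genes that supply acetyl-CoA and build saturated chains were called lower, while after quantile normalization the desaturases tested were not. Of 12 tested, 7 were called lower and 2 higher, against 26.1% and 23.1% of all genes, with a median change of -0.52. That median was -0.19 with every probe set taken on its own, where 8 of 18 were called lower, and -0.93 with spike-in scaling. Acly, which splits citrate into cytosolic acetyl-CoA, read 2821.3 and 3121.9 at 33 °C and 1785.3 and 1950.8 at 39 °C, a change of -0.61 ± 0.10 (SE). Acss2 and Aacs, which activate acetate and acetoacetate, changed by -0.86 ± 0.14 and -1.0 ± 0.10 (SE). The Aacs arrays stood at 1542.1 and 1551.7 against 737.4 and 806, with an adjusted p of 1.74e-05 in limma. Acaca, the carboxylase that makes malonyl-CoA, read 597.4 and 826.4 against 430.7 and 376.1, a change of -0.86 ± 0.16 (SE). Its second, dimmer probe set read 166.9 and 159.1 against 179.5 and 141.7, with overlapping groups and a change of -0.17. Fasn, the synthase that extends malonyl-CoA to palmitate, read 2549.7 and 2874.4 against 1274.4 and 1476, a change of -0.94 ± 0.11 (SE) with an adjusted p of 3.44e-05 in limma. A further Fasn probe set changed by -0.84. Elovl6, which elongates palmitate, read 217.8 and 206.7 against 98.5 and 106.4, 2.14-fold lower with an adjusted p of 0.00105 in limma. Elovl1, which elongates saturated very long chains, changed by -0.43 ± 0.10 (SE).

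Scd2, a desaturase that introduces the first double bond, read 7028.2 and 6956.3 against 6571.1 and 6649.7. Its change was 0.01 with a 95% confidence interval from -0.16 to 0.19, and its further probe sets changed by 0.18 and 0.07. With other scalings the change was -0.08 on the scale as deposited, -0.23 with median-centring and -0.46 with spike-in scaling, and it was called lower in the last 2 of these. Scd, the closely related desaturase, lay under the dimness threshold and was not tested. It read 93.8 and 104.3 against 63.5 and 30.4, a change of -1.05 with both 39 °C arrays lower. With no filter on dim genes Scd was called lower, with an adjusted p of 0.0446 in limma, as were 15.6% of all genes. The pair are close paralogs, and cross-hybridisation between them was not tested. Fads1, which desaturates polyunsaturated chains, changed by -0.06, with a 95% confidence interval from -0.31 to 0.19, and was called lower with spike-in scaling (-0.40). Fads2, which acts before it, read 373 and 347 against 551.5 and 487.2. Its rise of 0.41 ± 0.14 (SE, adjusted p 0.028 in limma) lost its call without permissive replicate 2 (0.35) and without nonpermissive replicate 1 (0.31), with no filter on dim genes (adjusted p 0.0558 in limma) and with spike-in scaling (0.13).

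Elovl5, the elongase of polyunsaturated chains, read 2906.1 and 2496.4 at 33 °C and 3411.7 and 3417.2 at 39 °C, a rise of 0.43 ± 0.10 (SE, adjusted p 0.00292 in limma). A second Elovl5 probe set, at 649.6 and 747.7 against 731.9 and 688.8, overlapped and changed by -0.02. The Elovl5 change was not called with median-centring (0.19), with the mean of its probe sets (0.21) or with spike-in scaling (-0.04). Me1, the malic enzyme that supplies NADPH, changed by 0.18 with a 95% confidence interval from -0.06 to 0.42, and by -0.21 in its second probe set. Thrsp, a nuclear protein induced with lipogenesis, was dim, at 42.5 and 75.5 against 128.9 and 60.3, and was not tested.

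**Figure D5:**
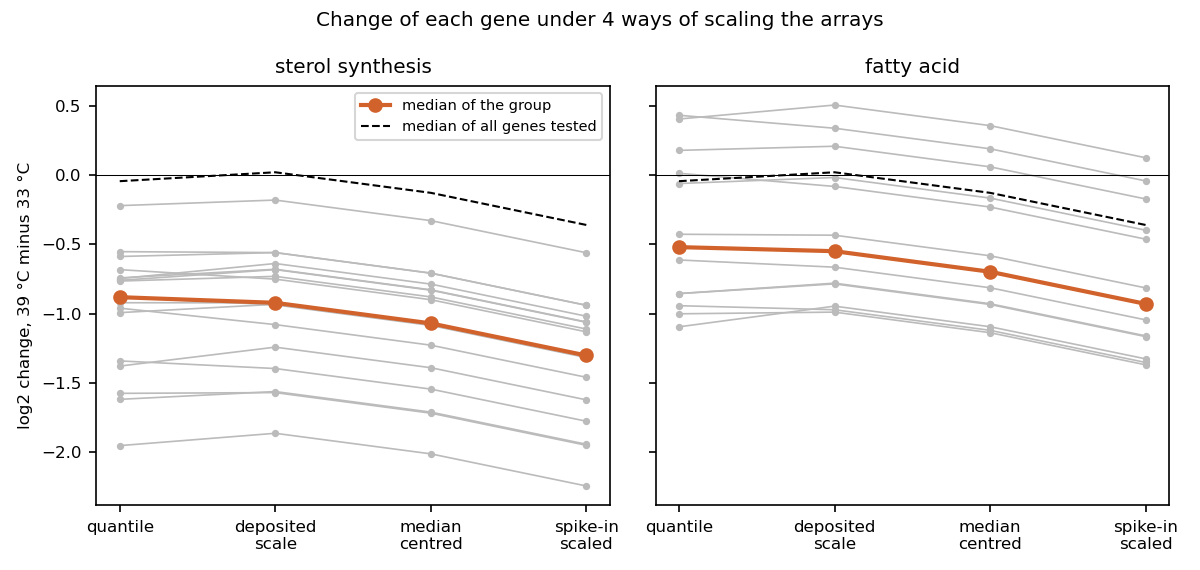
Log2 change, 39 °C minus 33 °C, of each tested gene (grey) under 4 ways of scaling the arrays, for sterol synthesis on the left and the fatty acid group on the right, with the group's median in orange and the median of all genes dashed. The sterol median lies between -1.30 and -0.88 and the fatty acid median between -0.93 and -0.52, while the median of all genes runs from -0.36 to 0.02.

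Further genes of lipid metabolism were followed in 5 lists of 72 genes, of which 42 were tested, with 16 called lower and 12 higher, against 26.1% and 23.1% of all genes. Under spike-in scaling 24 were called lower and 5 higher, against 47.9% and 11.4% of all genes. Among enzymes and cofactors next to the sterol pathway, 5 of 7 were called lower and 1 higher. Tmem97, a sterol-regulated membrane protein, changed by -0.71 ± 0.12 and the mitochondrial thiolase Acat1 by -0.65 ± 0.11 (SE). Cytochrome b5, encoded by Cyb5a, which passes electrons to sterol and fatty acid enzymes, rose by 0.67 ± 0.10 (SE), without a call with spike-in scaling (0.27). In lipoprotein uptake, efflux and the liver X receptor system, 2 of 9 were called lower and 3 higher. Vldlr, a lipoprotein receptor, rose by 1.97 ± 0.23 (SE), 3.91-fold, from a 33 °C mean that did not reach the dimness threshold, with an adjusted p of 3.61e-05 in limma. The receptor subunit Rxra changed by 0.71 ± 0.23 (SE), and its call was lost with spike-in scaling (0.47), with no filter on dim genes (adjusted p 0.0778 in limma) and without permissive replicate 2 (0.44), nonpermissive replicate 1 (0.68) or nonpermissive replicate 2 (0.74). The high-density lipoprotein receptor Scarb1 changed by -1.0 ± 0.12 and the sterol exporter Abcg1 by -0.72 ± 0.11 (SE).

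Among genes that process Srebp or modulate that step, 1 of 9 was called lower and 3 higher. For this list and the 2 that follow, the shares over all genes were 26.1% lower and 23.1% higher. The 2 proteases that cut Srebp in turn went opposite ways. Mbtps1 changed by -0.46 ± 0.12 (SE), without a call when nonpermissive replicate 1 was left out (-0.30), and Mbtps2 by 0.61 ± 0.13 (SE), without a call with spike-in scaling (0.28). Syvn1, a ubiquitin ligase of the endoplasmic reticulum, rose by 1.07 ± 0.20 (SE). In the supply of citrate and NADPH, 1 of 4 was called lower and 1 higher. The mitochondrial citrate carrier Slc25a1 changed by -0.41 ± 0.11 (SE), but was not called without permissive replicate 1 (-0.34). The cytosolic isocitrate dehydrogenase Idh1 changed by 0.64 ± 0.11 (SE), without a call with spike-in scaling (0.28). In fatty acid activation, binding and storage, 7 of 13 were called lower and 4 higher. The acyl-CoA synthetases differed, with Acsl1 at -0.92 ± 0.19 and Acsl5 at 0.97 ± 0.11 (SE). Dgat2, which makes triglyceride, changed by -0.87 ± 0.11 (SE). Pparg, a nuclear receptor of lipid storage, rose 2.80-fold, with an adjusted p of 0.00011 in limma, while the adipocyte markers Fabp4, Plin1 and Lep stayed under the dimness threshold.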

How the data were processed

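Affymetrix probe set intensities on a linear scale, as deposited by the authors, were used for 4 arrays. Per the labels' protocols, biotin-labelled cRNA was made from DNase-treated total RNA. No source used here names the software that summarised the probes. From the values, every array had a trimmed mean of 500.1 or 500.2, so arrays were scaled alike before deposit. The members and gene lists were chosen with earlier results of these data known.

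Values were taken as log2(intensity + 16) and quantile normalized over 15866 probe sets after 57 controls were left out. Probe sets with 1 symbol in GEO's platform annotation, 12783 in all, were used (12748 matched GRCr8 by Entrez identifier). A gene was its brightest probe set, and genes under the 40th percentile (intensity 81.1) were left out, 3395 in all. Groups came from sample titles and were compared with limma 3.58.1 in R 4.3.3 with an intensity trend, two-sided, with Benjamini-Hochberg adjustment over 7016 genes. An exact permutation test of 2 against 2 arrays cannot go below 0.333. The procedure was tested on simulated data. Every member was described, and of each further list the called genes with the 2 largest rises and falls. Figures used matplotlib 3.10.9. Alternatives changed the scaling, constant, filter, probe set choice, trend, replicate block and arrays.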

Additional observations from a re-analysis of the deposited data

How the results depend on the processing

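Of 16 alternatives, that with every probe set on its own gave no single value per gene. Under the others, 24 of the 30 called members kept their call and sign wherever a value was given. The exceptions were Sc5d, Insig2, Scap, Srebf2, Elovl5 and Fads2. With every probe set on its own, 34 of 51 probe sets of the members were called lower and 4 higher. Among the called members, Sc5d, Acaca and Elovl5 then had a further probe set without a call. Genes called lower numbered 24 to 31 of the members, and those called higher 3 or 4, but 1 with spike-in scaling and 2 with no filter on dim genes or without permissive replicate 2. Leaving out 1 array gave 24 to 26 lower, 2 to 4 higher, 16 of the sterol synthesis genes lower each time, 7 of the fatty acid genes, and 2699 to 3210 calls over all genes. Members' medians were then -0.78 to -0.65, -0.90 to -0.87 for sterol synthesis and -0.56 to -0.48 for the fatty acid group.

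The median of all members was -0.82 with median-centring, -1.05 with spike-in scaling and -0.62 with probe sets of a gene averaged. For sterol synthesis these were -1.07, -1.30 and -0.96, and -0.82 with the 60th percentile for dim genes. The fatty acid median was -0.70 and -0.93 under the first 2 of these scalings, -0.43 with the 60th percentile and -0.19 with every probe set on its own. Both array scalings shift whole arrays, and the stricter filter tests fewer genes; otherwise the cause was not tested.

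Signs turned for members without a call. As each array was left out, Srebf1 ran from -0.33 to 0.032 (the last without nonpermissive replicate 2), Soat1 from -0.39 to 0.0092 (0.0030 without permissive replicate 2, 0.0092 without nonpermissive replicate 1) and Scd2 from -0.00085 (without permissive replicate 1) to 0.030. Scd2 was -0.081 on the scale as deposited, -0.23 with median-centring and -0.46 with spike-in scaling, the last 2 called lower. Me1 was -0.17 with spike-in scaling and -0.016 with its probe sets averaged. Of the called members, Elovl5 turned to -0.041, uncalled, with spike-in scaling.

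With the replicate block, 26 members were lower and 4 higher, and 3706 genes were called in all. Differences between replicates 1 and 2 correlated at -0.0064 between temperatures, so the numbers give no sign of pairing. With 2 arrays per group the number of arrays limits the precision.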
